A study of Mus musculus with 33 samples.

Results

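AP-1 and a small set of immediate early transcription factors were followed across 33 mouse liver RNA-seq libraries in 4 groups of genotype and diet. The set held 10 genes, matched by symbol among the 19169 genes of the count table: the FOS genes Fos, Fosb, Fosl1 and Fosl2, the JUN genes Jun, Junb and Jund, and Atf3, Egr1 and Myc. Of these, 9 passed the filter on low counts, with 14934 genes tested in all, and Fosl1 did not pass. Mutant mice carried the tamoxifen-inducible allele labelled Nlrp3A350V/+CreT and are called KI (knock-in). Wild-type mice are called WT. The allele carries a point mutation in Nlrp3, the sensor protein of an inflammasome. Each genotype was fed for 6 weeks, either on control chow with placebo or on a diet that held GS-444217 (the ASK1i diet), which selectively inhibits the kinase ASK1. WT control had 10 libraries (7 female, 3 male) and WT ASK1i had 8 (4 female, 4 male). KI control had 5 libraries (1 female, 4 male) and KI ASK1i had 10 (5 female, 5 male). The labels give no age, do not name the promoter that drives Cre, and do not say whether WT mice carried CreT or received tamoxifen.

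AP-1 is a dimer of basic leucine zipper (bZIP) proteins. FOS proteins pair with JUN proteins, and JUN proteins also pair with each other and with ATF proteins such as ATF3. Genes of this kind are transcribed within minutes of a growth factor, cytokine or stress signal without new protein synthesis, and many of their mRNAs decay quickly. ASK1 lies upstream of the kinases JNK and p38, and JNK phosphorylates JUN, so the inhibitor acts on a pathway that feeds into AP-1. Liver injury and partial removal of the liver are classic settings in which FOS, JUN and MYC genes are induced.

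Nlrp3 itself was read first, as a check of the labels. Levels are given as CPM, a gene's count scaled to the size of its library. WT control held 3.03 ± 1.05 CPM (SD, n = 10) and KI control 11.1 ± 3.45 CPM (n = 5), a log2 difference of 2.10 (SE 0.24, adjusted p = 3.642e-08). With the inhibitor, WT held 2.73 ± 0.492 CPM (n = 8) and KI 7.90 ± 2.66 CPM (n = 10), a log2 difference of 1.61 (SE 0.22, adjusted p = 2.513e-07). Every KI control library lay above every WT control library, and the same held for 9 of 10 KI libraries with the inhibitor. At 2.10 CPM, the library labelled KI ASK1i replicate 5 did not follow. On the first principal component of all genes it scored -59.2, among the WT libraries (-74.1 to -45.9), while the other KI libraries scored 54.8 to 103. Of the 10 genes, 8 had a level in this library that fell within the range of WT ASK1i. For the 9 tested genes of the set, log2 values between genotypes on the ASK1i diet are therefore given with and without it. Counts of calls on that diet in the main fit are treated likewise. Library totals were 28099676 to 40008118 counts. Titles carry a code beginning with L whose meaning is not stated, and no such code holds both KI control and WT control.

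Markers of blood-derived cells and hepatocytes moved with genotype. The summed level of 11 neutrophil markers was 6.36 to 24.3 CPM in WT control and 729 to 3869 CPM in KI control. For 11 monocyte and macrophage markers the sums were 348 to 773 and 1935 to 2827 CPM, and for 12 hepatocyte markers they were 134515 to 156173 and 52890 to 77589 CPM. With the inhibitor the ranges were 4.38 to 11.7 CPM in WT and 11.0 to 5056 CPM in KI for neutrophil markers, 378 to 529 and 473 to 2963 CPM for monocyte and macrophage markers, and 129786 to 168646 and 52652 to 133241 CPM for hepatocyte markers. The library labelled KI ASK1i replicate 5 set the KI end nearest WT in each of these ranges. No marker of these lists was at 0 in every library of a group. Neutrophils, monocytes and macrophages are known to express several of the AP-1 genes, and the part of cell makeup in the results below was not tested. In bulk liver, fewer cells of a type and less RNA per cell cannot be told apart.

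Promoter sequence was read for 7 of the 10 genes from the RefSeq table of build GRCm38.p6, in the 250 bases before the listed start site. The last 120 bases are shown for the 5 genes whose windows held a motif searched for, and for Fosl2, the FOS gene with the smallest adjusted p between genotypes, whose window held none. The window of Jund also held none. The Fos stretch lies at chr12:85473770-85473889 on the plus strand and the Fosl2 stretch at chr5:32136352-32136471 on the plus strand. On the minus strand lie those of Fosb at chr7:19310046-19310165, Jun at chr4:95052223-95052342, Junb at chr8:84978749-84978868 and Atf3 at chr1:191183334-191183453. Capitals mark TGACG or its reverse complement CGTCA (the half-site of the cyclic AMP response element), TATAAA (the TATA box) and, in Jun, TGACATCA (a variant AP-1 site).
Fos: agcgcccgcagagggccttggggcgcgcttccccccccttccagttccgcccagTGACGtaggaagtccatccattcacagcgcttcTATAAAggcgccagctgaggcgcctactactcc
Fosb: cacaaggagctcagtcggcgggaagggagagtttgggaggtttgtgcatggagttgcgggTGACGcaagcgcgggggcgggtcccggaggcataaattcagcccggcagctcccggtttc
Fosl2: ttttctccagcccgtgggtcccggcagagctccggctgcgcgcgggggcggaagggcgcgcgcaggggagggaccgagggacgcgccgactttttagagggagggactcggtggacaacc
Jun: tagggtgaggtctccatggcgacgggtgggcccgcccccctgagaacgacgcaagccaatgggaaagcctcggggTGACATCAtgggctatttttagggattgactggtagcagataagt
Junb: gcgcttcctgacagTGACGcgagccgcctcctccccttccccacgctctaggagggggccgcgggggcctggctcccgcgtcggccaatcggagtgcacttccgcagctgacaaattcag
Atf3: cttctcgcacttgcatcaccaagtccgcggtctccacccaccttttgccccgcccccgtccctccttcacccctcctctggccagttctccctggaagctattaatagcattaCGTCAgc

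The half-site TGACG, searched on both strands and chosen after the sequences had been seen, was in 4 of the 7 windows, against 17.8% of 32851 windows of all genes. It began 129 and 66 bases before the start in Fos, 60 bases before it in Fosb and 106 bases before it in Junb. In Atf3 it lay on the other strand, from 7 bases before the start. That listed start lies inside the gene's span in the count table (chr1:191170297-191218039), so the window is not that of the outermost start. The half-site is contained in the full cyclic AMP response element. The TATA box began 33 bases before the Fos start (12.4% of all windows held one), and TGACATCA began 45 bases before the Jun start (2.93%). None of the 7 windows held TGACTCA (the AP-1 site, 4.46% of all windows), TGACGTCA (the full cyclic AMP response element, 1.55%), CACGTG (the E-box, 6.02%), GCGTGGGCG (the EGR site, 0.536%) or the serum response element (1.47%). These matches describe letters in the windows. Sites farther than 250 bases before the start, the serum response element among them, were not searched for, so none is shown to be lacking. Fosl1, Egr1 and Myc are named only.

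**Figure D1:**
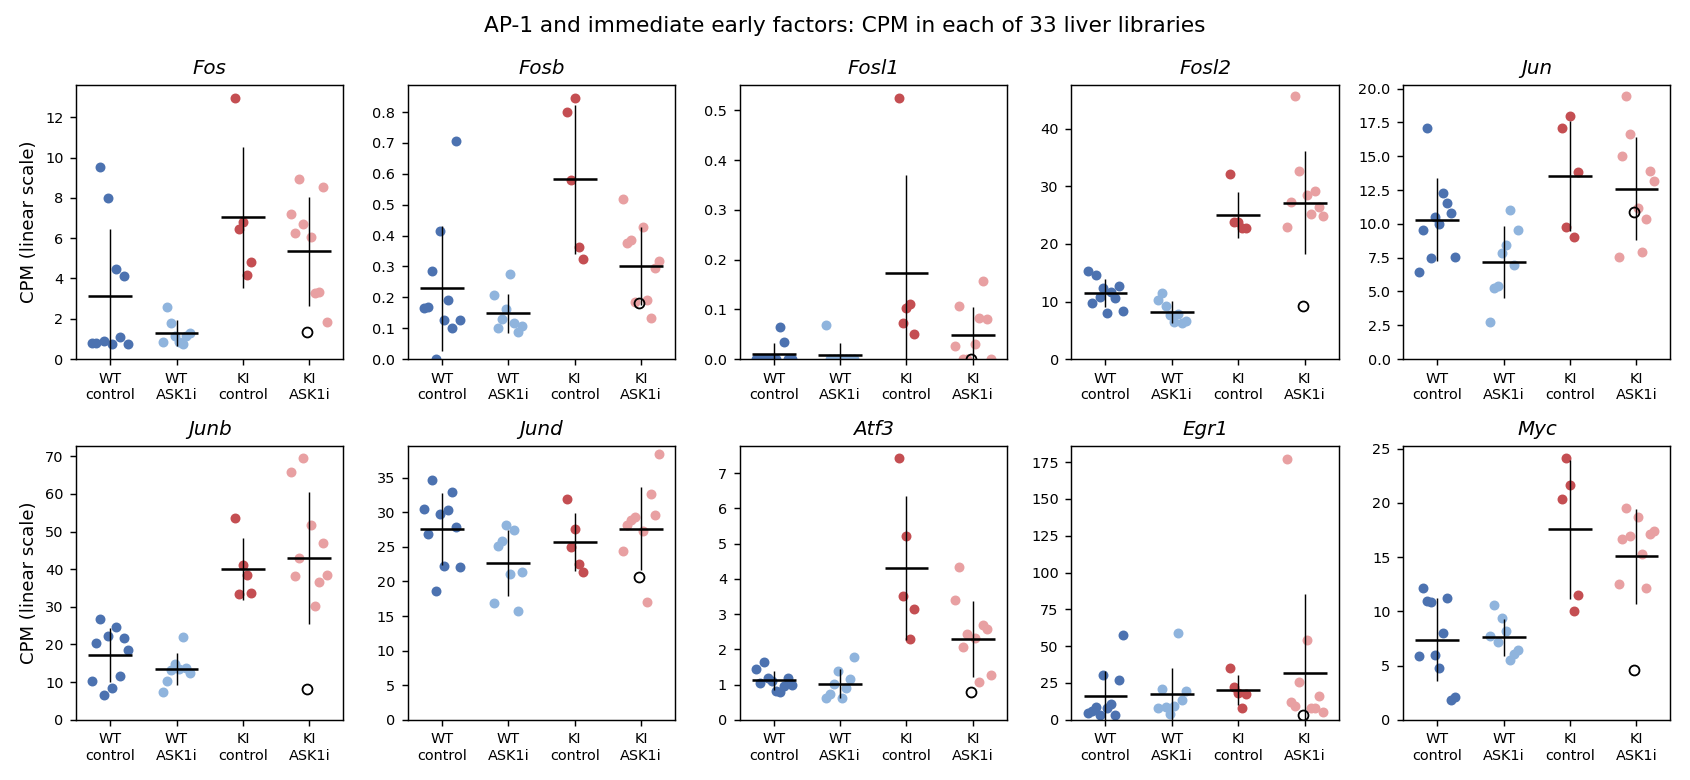
CPM of each gene (vertical axis, linear, own scale per panel) in the 33 libraries by group. Points are libraries, horizontal lines the group mean and vertical lines 1 SD either way (the axes start at 0), and the open circle is the library labelled KI ASK1i replicate 5. Fosl2 lay between 7.94 and 15.3 CPM in WT control and between 22.8 and 32.2 CPM in KI control, whereas Jund overlapped between all groups.

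Per kilobase of transcript, Jund was the most abundant of the 10 mRNAs in WT control, at 16.5 ± 3.09 CPM per kb (SD, n = 10). It was followed by Junb at 9.49 ± 3.99, Egr1 at 3.56 ± 3.89, Jun at 3.23 ± 0.956, Myc at 3.15 ± 1.64, Fosl2 at 1.75 ± 0.374 and Fos at 1.48 ± 1.57 CPM per kb. Atf3 (0.564 ± 0.136) and Fosb (0.0605 ± 0.0532) were lower, and Fosl1 was near the detection limit. Neighbours from Egr1 to Fos in this order differed by less than 1 SD of the more variable of each pair. Transcript lengths came from GENCODE. With the longer RefSeq span of Jund (2878 in place of 1668 bases) its level was 9.59 CPM per kb, within 1 SD of that of Junb, and the order of the means was the same. Lengths of the other genes were not varied, so the order rests on the lengths used.

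Fosb, Fosl2, Junb, Atf3 and Myc were higher in KI than in WT livers on both diets, and Fos and Jun were called higher on the ASK1i diet. On control chow 5 of 9 tested genes were higher in KI by edgeR's quasi-likelihood test at an adjusted p under 0.05 (Fosb, Fosl2, Junb, Atf3 and Myc) and 0 were lower. Over all genes tested, 27.8% were called higher and 28.9% lower, or 56.7% in either direction, so the share of the 9 genes called at all was near the background and the calls differed from it in direction. At an unadjusted p under 0.05 there were 6 of 9, against 61.4%. The median log2 fold change of the 9 genes was 1.15, beside -0.03 over all genes. With the inhibitor 7 of 9 were higher (Fos, Fosb, Fosl2, Jun, Junb, Atf3 and Myc) and 0 lower, against 30.3% and 28.8% of all genes (59.1% in either direction), with a median of 1.13 beside 0.01. At an unadjusted p under 0.05 there were 8 of 9, against 62.8%. DESeq2 and limma-voom also called 0 of the 9 lower on either diet. Without the library labelled KI ASK1i replicate 5, 8 of 9 were higher on that diet, Jund being added, against 31.8% (63.2% in either direction). On control chow every KI library lay above every WT library for 3 of 9 genes (Fosl2, Junb and Atf3), against 16.3% of all genes. With the inhibitor 0 of 9 separated the groups in this way (2.36% of all genes higher and 3.91% lower), and without replicate 5 it was 3 (Fosl2, Junb and Myc, against 13.0%). With sex and the L code in the fit 3 of 9 were higher on control chow (Fosl2, Atf3 and Myc). In that fit 2737 of 14934 genes were called higher, and 34.2% in either direction.

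**Figure D2:**
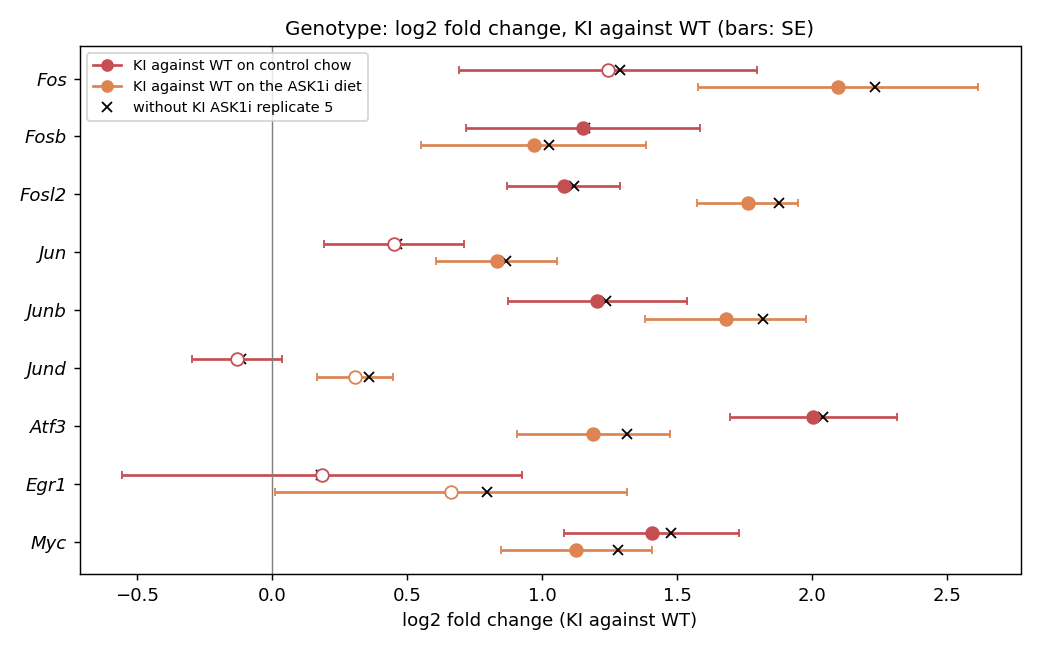
Log2 fold change of KI against WT (horizontal axis) for the 9 tested genes, with control chow and the ASK1i diet side by side. Bars are standard errors, filled points had an adjusted p under 0.05, and crosses give the value without the library labelled KI ASK1i replicate 5. Atf3 had the highest value on control chow (2.00) and Fos with the inhibitor (2.10), and Jund lay nearest 0 among the JUN genes on both diets.

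Fos, the founding FOS subunit (mm10, chr12:85473901-85477270), split the WT control libraries. In 4 of them it was 9.53, 7.99, 4.48 and 4.15 CPM (replicates 3, 5, 7 and 1P), and in the other 6 it was 0.753 to 1.11 CPM. KI control libraries held 13.0, 6.44, 6.82, 4.17 and 4.79 CPM. Only KI control replicate 1 exceeded every WT control library, and all 5 exceeded the WT control mean of 3.13 ± 3.31 CPM. The log2 difference on control chow was 1.24 (SE 0.55) and missed the threshold (adjusted p = 0.05426). It passed without the library labelled KI ASK1i replicate 5 (adjusted p = 0.03609) and in 7 other fits that each left out 1 library, listed with the processing limits. With the inhibitor Fos in WT ranged from 0.733 to 2.59 CPM with a median of 1.13, and in KI from 1.34 to 8.94 with a median of 6.16 CPM. Fos rose 4.27-fold there (log2 2.10, SE 0.52, adjusted p = 0.0009316), and 8 of 10 KI libraries exceeded every WT library. The log2 value without replicate 5 was 2.23.

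Fosl2, the FOS family member also called FRA-2 (chr5:32136472-32157839), separated the genotypes on control chow. WT control libraries ranged from 7.94 to 15.3 CPM with a median of 11.2. KI control libraries held 32.2, 23.9, 23.8, 22.8 and 22.8 CPM, with no overlap. The rise was 2.11-fold (log2 1.08, SE 0.21, adjusted p = 6.798e-05) and was 1.53 on the log2 scale with the L code in the fit (adjusted p = 0.000833). With the inhibitor WT ranged from 6.34 to 11.5 CPM (median 7.74) and KI from 9.14 to 45.7 CPM (median 26.9). The lowest KI value was that of replicate 5, and the next lowest was 22.9 CPM. The rise was 3.39-fold (log2 1.76, SE 0.19, adjusted p = 8.231e-09), and 1.88 on the log2 scale without replicate 5.

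Fosb, whose protein includes a truncated form known from brain, had few reads (chr7:19302696-19310045). Counts per library were 0 to 23 in WT control and 13 to 33 in KI control, or 0.229 ± 0.201 CPM (SD, n = 10) and 0.582 ± 0.241 CPM (n = 5). The rise on control chow was 2.22-fold (log2 1.15, SE 0.43, adjusted p = 0.02458). Its call was lost without WT control replicate 8, KI control replicate 1 or KI control replicate 3 (highest adjusted p = 0.1794), with the L code in the fit (0.3104) and with male mice alone (0.3899). The means were, with the inhibitor, 0.148 ± 0.0637 (n = 8) and 0.301 ± 0.127 CPM (n = 10), and Fosb rose by 0.97 on the log2 scale (SE 0.42, adjusted p = 0.04606). That call was lost in 15 of the 33 fits that left out 1 library. Without replicate 5 the value was 1.03 and the call was kept (adjusted p = 0.03708).

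Fosl1, the gene of FRA-1 (chr19:5447698-5455938), was almost absent from WT liver. Its reads summed to 3 over 10 WT control libraries and 2 over 8 WT ASK1i libraries, beside 32 over 5 KI control and 18 over 10 KI ASK1i libraries. Reads were present in 5 of 5 KI control libraries and 2 of 10 WT control libraries. A single library, KI control replicate 1, held 19 of the 32. In a fit without the filter on low counts the log2 difference on control chow was 4.00 (SE 0.86, adjusted p = 0.0002721) and with the inhibitor 2.24 (SE 0.94, adjusted p = 0.04789), values that depend on the prior count added to so few reads.

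The JUN genes behaved unevenly. Junb (chr8:84974484-84978748), a JUN subunit whose transcription responds to cytokines, ranged from 6.65 to 26.7 CPM in WT control with a median of 19.4. KI control libraries held 53.5, 33.5, 41.1, 38.4 and 33.7 CPM, all above the WT range. The rise was 2.31-fold (log2 1.205, SE 0.33, adjusted p = 0.002778), and with the L code in the fit the value was 0.88 and the call was lost (adjusted p = 0.1546). Junb with the inhibitor was 7.31 to 22.0 CPM in WT (median 13.4) and 8.17 to 69.7 CPM in KI (median 40.8). Replicate 5 gave the lowest KI value and the next was 30.4 CPM. The rise was 3.20-fold (log2 1.68, SE 0.30, adjusted p = 1.954e-05), and 1.52 with the L code (adjusted p = 0.0005722). Without replicate 5 the log2 value was 1.82.

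Jun, the main transactivating partner of FOS (chr4:95049036-95052222), was 6.40 to 17.1 CPM in WT control (median 10.2) and 17.1, 9.77, 17.9, 9.01 and 13.8 CPM in KI control. The groups overlapped, and the log2 difference of 0.45 (SE 0.26) did not pass (adjusted p = 0.1385). Jun with the inhibitor was 2.71 to 11.0 CPM in WT and 7.55 to 19.4 CPM in KI. It rose 1.78-fold there (log2 0.83, SE 0.22, adjusted p = 0.002083), a call that was lost with the L code in the fit (0.60, adjusted p = 0.07372). The value was 0.87 without replicate 5.

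Jund, the JUN subunit with the steadiest expression in unstimulated cells (chr8:70697739-70700616), was 18.6 to 34.6 CPM in WT control (median 28.8) and 31.9, 25.0, 27.6, 22.5 and 21.4 CPM in KI control. Its log2 difference was -0.13 (SE 0.17, adjusted p = 0.5293), and all KI control values lay inside the WT range. Ranges with the inhibitor were 15.7 to 28.2 CPM in WT and 17.0 to 38.5 CPM in KI, with a log2 difference of 0.31 (SE 0.14, adjusted p = 0.06074). Without replicate 5 it was 0.36 and passed (adjusted p = 0.02704).

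Because Junb rose and Jund did not, the makeup of FOS and JUN family mRNA differed between genotypes. Each gene's CPM per kb was taken as a share of the sum over the 7 family members. Jund made up 52.1% ± 7.52 (SD, n = 10) in WT control and 31.5% ± 1.92 (n = 5) in KI control, with ranges of 43.5 to 63.4% and 29.1 to 34.4% that did not overlap. The share of Junb was 28.2% ± 7.27 in WT control and 45.0% ± 2.49 in KI control, also without overlap (19.1 to 37.1% and 42.6 to 49.2%). Fosl2 took 5.57% ± 1.49 and 7.87% ± 0.607, and Jun 10.1% ± 2.02 and 8.59% ± 1.93. With the GENCODE lengths Junb exceeded Jund per kb in 0 of 10 WT control, 0 of 8 WT ASK1i, 5 of 5 KI control and 8 of 10 KI ASK1i libraries. With the longer Jund length the counts were 6 of 10, 3 of 8, 5 of 5 and 9 of 10, and the Jund share was 38.9% in WT control and 21.0% in KI control. Which of the 2 genes was higher in a WT library thus depended on the length used. The span of Junb in the count table is also longer than the 1809 bases used, and no other length was tried for it. The shares carry no test of their own, and they describe mRNA, not protein.

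**Figure D3:**
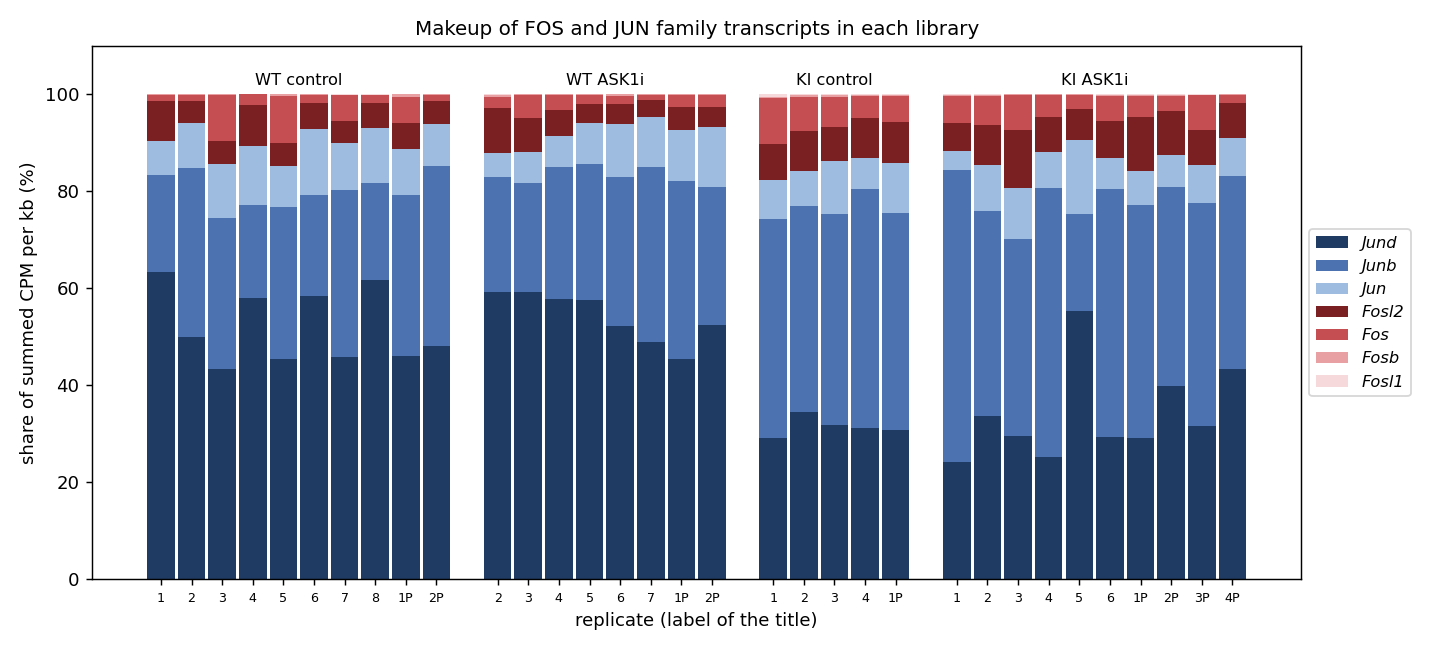
Share of each FOS and JUN gene in the summed CPM per kb of the 7 genes (vertical axis, percent), with 1 bar per library by group and GENCODE transcript lengths. The darkest segment, Jund, took 43.5 to 63.4% in WT control libraries and 29.1 to 34.4% in KI control libraries, and the KI ASK1i bar of replicate 5 held 55.3%.

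Atf3, a stress-induced member of the ATF family (chr1:191170297-191218039), had the widest genotype difference of the tested genes on control chow. WT control libraries lay between 0.800 and 1.65 CPM (median 1.08). KI control libraries held 7.43, 3.50, 5.20, 2.28 and 3.15 CPM, all above them. The rise was 4.01-fold (log2 2.00, SE 0.31, adjusted p = 3.37e-06), and 2.00 on the log2 scale with the L code in the fit (adjusted p = 0.003659). With the inhibitor WT was 0.604 to 1.77 CPM (median 0.960) and KI 0.792 to 4.35 CPM (median 2.38). The groups overlapped there, with 7 of 10 KI libraries above every WT library. That rise was 2.28-fold (log2 1.19, SE 0.28, adjusted p = 0.0006305), or 1.31 on the log2 scale without replicate 5.

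Egr1, a zinc-finger factor that serum and growth factors induce within minutes (chr18:34861207-34864956), varied widely between libraries and showed no genotype difference that passed. It ranged from 2.92 to 57.5 CPM in WT control (median 8.57) and held 35.2, 22.3, 18.0, 7.93 and 17.5 CPM in KI control. In WT ASK1i it ranged from 3.69 to 58.7 CPM (median 11.3). In KI ASK1i the range was 3.41 to 177 CPM (median 10.7). All 4 groups overlapped. The log2 differences were 0.19 (SE 0.74, adjusted p = 0.8466) on control chow and 0.66 (SE 0.65, adjusted p = 0.3926) with the inhibitor, and their sign depended on single libraries: without KI control replicate 1 the first was -0.88, and without KI ASK1i replicate 1 the second was -0.07. The second was 0.80 without replicate 5 (adjusted p = 0.299).

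Myc, the bHLH factor of growth and ribosome production (chr15:61985341-61990361), was 1.84 to 12.2 CPM in WT control (median 6.98). KI control libraries held 20.4, 24.2, 21.7, 10.0 and 11.5 CPM, and 3 of the 5 lay above every WT library. The rise was 2.65-fold (log2 1.41, SE 0.32, adjusted p = 0.0005308), and 2.01 with the L code in the fit (adjusted p = 0.002526). Among inhibitor-fed mice WT was 5.48 to 10.5 CPM (median 7.42) and KI 4.60 to 19.5 CPM (median 16.8). The lowest KI value was again replicate 5, and the next was 12.2 CPM. The rise was 2.18-fold (log2 1.13, SE 0.28, adjusted p = 0.0009976), or 1.28 on the log2 scale without replicate 5.

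Genes that act with MYC or are its targets moved in both directions. Of 10 tested partners and antagonists, 3 rose and 3 fell on control chow (median log2 -0.09), near the 56.7% of all genes called in either direction. With the L code in the fit, or with numbered titles alone, 0 fell. The counts were 3 and 3 with the inhibitor as well (median 0.04), near the 59.1% of all genes called there. Without replicate 5, 3 rose and 4 fell on each diet. Max, the obligate partner, rose from 17.0 ± 1.501 (SD, n = 10) to 26.8 ± 2.98 CPM (n = 5; log2 0.69, SE 0.11, adjusted p = 4.44e-06). Mxd1, which competes with MYC for MAX, rose from 6.56 ± 1.53 to 32.0 ± 7.65 CPM (log2 2.25, SE 0.27, adjusted p = 5.973e-08). Of 20 MYC target genes, 2 rose and 5 fell on control chow, and 8 rose and 3 fell on the ASK1i diet, with medians of -0.09 and 0.08. As a share these calls lay below the 56.7% and 59.1% of all genes called in either direction, and their numbers did not change without replicate 5. Among them Odc1, the first enzyme of polyamine synthesis, fell from 70.1 ± 14.5 to 47.0 ± 4.11 CPM on control chow (log2 -0.46, SE 0.13, adjusted p = 0.003383). With the inhibitor Nop58, a nucleolar protein of ribosomal RNA modification, rose from 15.7 ± 2.00 (n = 8) to 22.9 ± 2.75 CPM (n = 10; log2 0.54, SE 0.09, adjusted p = 1.24e-05). The target counts depended on the fit: with the L code 0 rose and 2 fell on control chow, and with DESeq2 4 rose.

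Within the rest of the bZIP class, 6 of 15 partners of AP-1 rose and 1 fell on either diet, with medians of 0.18 and 0.15, and the counts were the same without replicate 5. The share called lay below the 56.7% and 59.1% of all genes called in either direction. The lower call was 0 with numbered titles alone and 2 with limma-voom on control chow, and 2 with the L code on the ASK1i diet. On control chow it was also 2 without WT control replicate 4, KI control replicate 1 or 4, or KI ASK1i replicate 2. Those named by the smallest p were Batf, Batf2, Batf3 and Jdp2, small bZIP proteins that pair with JUN. Batf3 rose from 1.02 ± 0.380 to 4.23 ± 0.839 CPM (log2 2.22, SE 0.31, adjusted p = 6.768e-07). Jdp2 rose from 2.38 ± 0.588 to 7.58 ± 1.92 CPM on control chow (log2 1.73, SE 0.23, adjusted p = 4.618e-07), and every KI library lay above every WT library on both diets. BATF proteins are known from lymphoid and myeloid cells.

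Other immediate early genes moved largely upward. Of 28 tested, 17 rose and 2 fell on control chow (median log2 0.90), and 20 rose and 3 fell on the ASK1i diet (median 1.00). Over all genes 27.8% and 30.3% were higher. Without replicate 5 the count on the ASK1i diet was 22 and 3. Klf6, a zinc-finger factor, rose from 11.5 ± 2.00 to 35.4 ± 6.89 CPM (log2 1.66, SE 0.17, adjusted p = 1.115e-08). Ier3, a short-lived regulator of cell survival, rose from 1.42 ± 0.556 to 10.3 ± 3.35 CPM (log2 2.96, SE 0.34, adjusted p = 3.775e-08). Ctgf, a matricellular protein linked to fibrosis, rose from 10.0 ± 3.31 to 35.6 ± 14.0 CPM (log2 1.85, SE 0.29, adjusted p = 3.535e-06). Of the 6 tested factors that act at serum response elements, 2 rose and 2 fell on control chow, beside 56.7% of all genes called in either direction. On the ASK1i diet 2 rose and 0 fell (1 fell without replicate 5), beside 59.1%. There 1 also fell with limma-voom, group alone, the replicate block or numbered titles alone, and in some other fits that left out 1 library. The rises on control chow were 1 with males alone. The 2 falls on control chow, of Mkl2 and Elk4, were 0 with the L code, numbered titles or males alone, and 1 with DESeq2, other size factors, no filter or the replicate block. Elk4 lost its call in 15 of the 33 fits that left out 1 library, and Mkl2 without KI control replicate 1, 2 or 1P. On control chow Mkl1 rose by 1.25 on the log2 scale (SE 0.16, adjusted p = 2.815e-07), and Srf itself by 0.31 (SE 0.11, adjusted p = 0.0157).

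Of 14 tested textbook AP-1 target genes, 11 rose and 0 fell on control chow, with a median log2 of 2.69, and 13 rose and 0 fell on the ASK1i diet, with a median of 2.22. Over all genes 27.8% and 30.3% were higher. The counts were 13 and 13 without replicate 5. DESeq2 and limma-voom also called 0 of them lower in either comparison, and with the L code in the fit 1 was lower on the ASK1i diet. Mmp9, a matrix-degrading gelatinase, rose from 1.28 ± 0.496 to 51.8 ± 18.0 CPM (log2 5.35, SE 0.48, adjusted p = 1.931e-09). Plaur, the urokinase receptor, rose from 0.630 ± 0.199 to 7.80 ± 3.40 CPM (log2 3.74, SE 0.33, adjusted p = 1.931e-09). Ccl2, the chemokine that draws monocytes, rose from 0.458 ± 0.217 to 10.7 ± 5.59 CPM (log2 4.56, SE 0.49, adjusted p = 1.749e-08). Several of these genes are also abundant in neutrophils and macrophages, and of those marker lists 11 of 11 neutrophil and 11 of 11 monocyte and macrophage genes rose in the same comparison, with median log2 values of 7.51 and 2.39. For stellate cells and myofibroblasts 9 of 12 markers rose and 0 fell, endothelial markers rose in 4 of 10 and fell in 1, and hepatocyte markers fell in 9 of 12 and rose in 1. With the inhibitor all 11 neutrophil and all 11 monocyte and macrophage markers rose, stellate cell markers rose in 5 and fell in 1, endothelial markers rose in 3 and fell in 2, and hepatocyte markers rose in 2 and fell in 7. Without replicate 5 these counts were the same except that 3 endothelial markers fell. The part of these cells in the target genes' rise was not tested.

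Within single L codes the genotype difference on the ASK1i diet could be read without a fit. In code L1, with 4 KI and 2 WT libraries, the mean of 8 of the 9 tested genes was higher in KI, and for 5 every KI library lay above every WT library. There Fosl2 averaged 26.4 and 6.48 CPM, Junb 38.1 and 13.1 CPM, Fos 4.25 and 1.204 CPM and Myc 15.5 and 6.23 CPM in KI and WT. Egr1 was the gene with the lower KI mean (9.42 against 16.3 CPM). In code L7, with 1 KI and 2 WT libraries, 8 of 9 means were again higher in KI, and Jun was the exception (7.55 against 9.74 CPM). Jund was nearly level there (24.4 against 24.3 CPM). The share of all genes with such differences within a code was not computed, so these counts have no background.

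No call for the inhibitor diet passed among the 9 genes in either genotype. In WT 0 of 9 passed, against 1.4% of all genes, with edgeR, and 0 passed with DESeq2 or limma-voom. At an unadjusted p under 0.05 there were 4 (Fos, Fosl2, Jun and Jund), all lower with the inhibitor, against 13.9% of all genes in either direction. Fosl2 went from 11.4 ± 2.44 (SD, n = 10) to 8.24 ± 1.92 CPM (n = 8), a log2 difference of -0.50 (SE 0.19, adjusted p = 0.1965). Jun went from 10.3 ± 3.05 to 7.16 ± 2.65 CPM (-0.50, SE 0.22, adjusted p = 0.3108), and Jund from 27.6 ± 5.15 to 22.7 ± 4.74 CPM (-0.29, SE 0.14, adjusted p = 0.3544). For Fos the difference was -1.18 (SE 0.52, adjusted p = 0.2999), and the high values of the 4 WT control libraries had no counterpart in WT ASK1i, whose highest library was 2.59 CPM. The groups overlapped for all 9 genes, while 0.241% of all genes were without overlap and higher and 0.0201% lower. Code L5 held 4 WT control libraries and 0 of WT ASK1i. Within code L6, with 4 libraries of each, the log2 ratios of mean CPM were smaller for 3 of the 4 genes. They were -0.19 for Fos, -0.0834 for Fosl2 and -0.12 for Jund, and -0.96 for Jun. In L6 the WT control libraries were female except replicate 8, and the WT ASK1i libraries male except replicate 5. These ratios are not adjusted for sex, so diet and sex cannot be told apart in them.

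In KI 0 of 9 genes passed, against 0.0536% of all genes, with 0 by DESeq2 and limma-voom. Without replicate 5 it was also 0 of 9, against 0.0804% in either direction and 0.0134% higher. At an unadjusted p under 0.05 there were 2 (Fosb and Atf3), both lower with the inhibitor, against 10.3% of all genes. Atf3 went from 4.31 ± 2.04 (SD, n = 5) to 2.30 ± 1.08 CPM (n = 10), a log2 difference of -0.90 (SE 0.30, adjusted p = 0.4124). It was below the KI control mean in 9 of 10 KI ASK1i libraries and below every KI control library in 4, and the difference without replicate 5 was -0.79. Fosb went from 0.582 ± 0.241 to 0.301 ± 0.127 CPM (-0.86, SE 0.42, adjusted p = 0.4828). The other 7 genes had log2 differences between -0.33 (Fos) and 0.47 (Egr1). The groups overlapped for all 9, while 0.0268% of all genes were without overlap and higher and 0.067% lower.

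**Figure D4:**
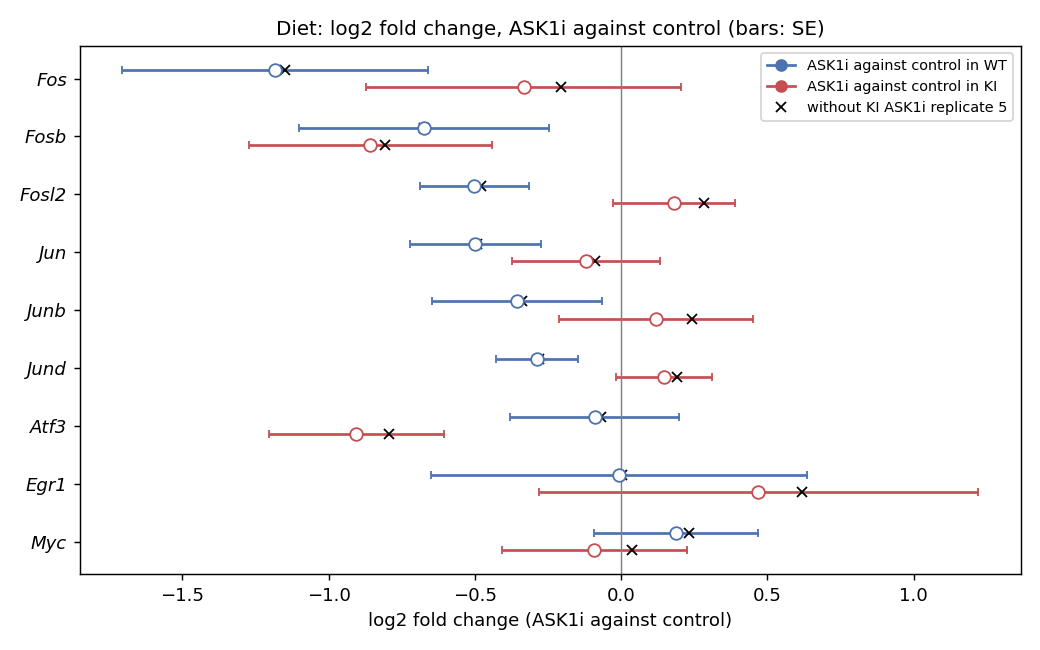
Log2 fold change of ASK1i against control (horizontal axis) in WT and in KI for the 9 tested genes, with standard errors as bars. All points are open because none had an adjusted p under 0.05, and crosses give the value without the library labelled KI ASK1i replicate 5. Fos had the lowest value in WT (-1.18) and Atf3 in KI (-0.90).

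Whether the diet effect differed between genotypes was tested by the interaction of genotype and diet. By edgeR 0 of 9 genes passed, as did 0.0% of all genes, and 0 of the 9 passed with DESeq2 or limma-voom. At an unadjusted p under 0.05 there was 1 (Fosl2, log2 0.68, SE 0.28, adjusted p = 0.5579), against 8.38% of all genes. Atf3 had a value of -0.81 (SE 0.42, adjusted p = 0.6172) and Jund 0.44 (SE 0.22, adjusted p = 0.6105). Fos and Jun, which passed between genotypes on the ASK1i diet and not on control chow, had interaction values of 0.85 (SE 0.76, adjusted p = 0.7839) and 0.38 (SE 0.34, adjusted p = 0.7856), so a difference between the diets was not shown. Without replicate 5 the interaction values were 0.76 for Fosl2 (adjusted p = 0.234), -0.72 for Atf3, 0.47 for Jund, 0.94 for Fos and 0.40 for Jun, none of them called.

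Spread within groups was widest for Egr1, Fos and Fosb in both WT groups, while Atf3 was at least as variable as Fosb in both KI groups. In WT control the coefficient of variation was 109% for Egr1, 106% for Fos and 88.0% for Fosb, beside a median of 18.5% over all genes tested. It was 18.7% for Jund, 21.4% for Fosl2 and 24.0% for Atf3. In WT ASK1i it was 99.3% for Egr1, 48.2% for Fos, 43.0% for Fosb and 39.6% for Atf3. In KI control it was 49.0% for Egr1, 49.6% for Fos, 47.4% for Atf3, 41.4% for Fosb, 20.5% for Junb and 16.3% for Jund, beside a median of 16.3%. In KI ASK1i it was 47.1% for Atf3 and 42.1% for Fosb, and 40.7% and 40.5% without replicate 5. Low counts add to the spread of Fosb.

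Libraries that were high for one of these genes, given their group, tended to be high for others, with pairs of Myc and of Egr1 as exceptions without replicate 5. After group, sex and title set were removed, 34 of 36 pairs had a positive Pearson r over 33 libraries and 10 exceeded 0.5. Without replicate 5 the counts were 29 and 6. The share over all pairs of genes was not computed, so these counts have no background. Among all genes Junb ranked 11 in likeness to Fos, whereas Myc ranked 1044 in likeness to Fosl2 at an r of 0.53. The highest was Fos with Junb (0.64, and 0.56 without replicate 5), followed by Junb with Egr1 (0.62 in both), Fos with Fosl2 (0.58 and 0.50) and Jun with Jund (0.56 in both). Myc with Egr1 was the lowest (-0.19 and -0.46). Without replicate 5 Myc was also below 0 with Fos (-0.0218), Fosb (-0.27), Junb (-0.25) and Atf3 (-0.0645). It was above 0 with Fosl2, Jun and Jund. Egr1 was then also below 0 with Fosl2 (-0.12) and Jund (-0.0301), and Fosl2 was near 0 with Junb (0.0543) and Jun (0.0688). Over all tested genes, the one most like Fos was Nr4a1, an orphan nuclear receptor and itself an immediate early gene (r = 0.88, rho 0.85, n = 33), and Ppp1r15a, a stress-induced phosphatase subunit, was next (r = 0.78). Both held these ranks without replicate 5, as did Slc10a3-ubl4, the gene most like Myc (r = 0.87, and 0.77 without replicate 5). For other members the order changed without that library. Btg2, an antiproliferative immediate early gene, ranked 1 for Junb and then 3 (r = 0.84 and 0.70), Map3k1 1 for Fosl2 and then 11 (0.83 and 0.66), Plk3 1 for Jun and then 5 (0.68 and 0.68), and Bcl10 1 for Atf3 and then 3 (0.79 and 0.70). These correlations describe libraries that share their depth scaling and their sample, and they carry no test.

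**Figure D5:**
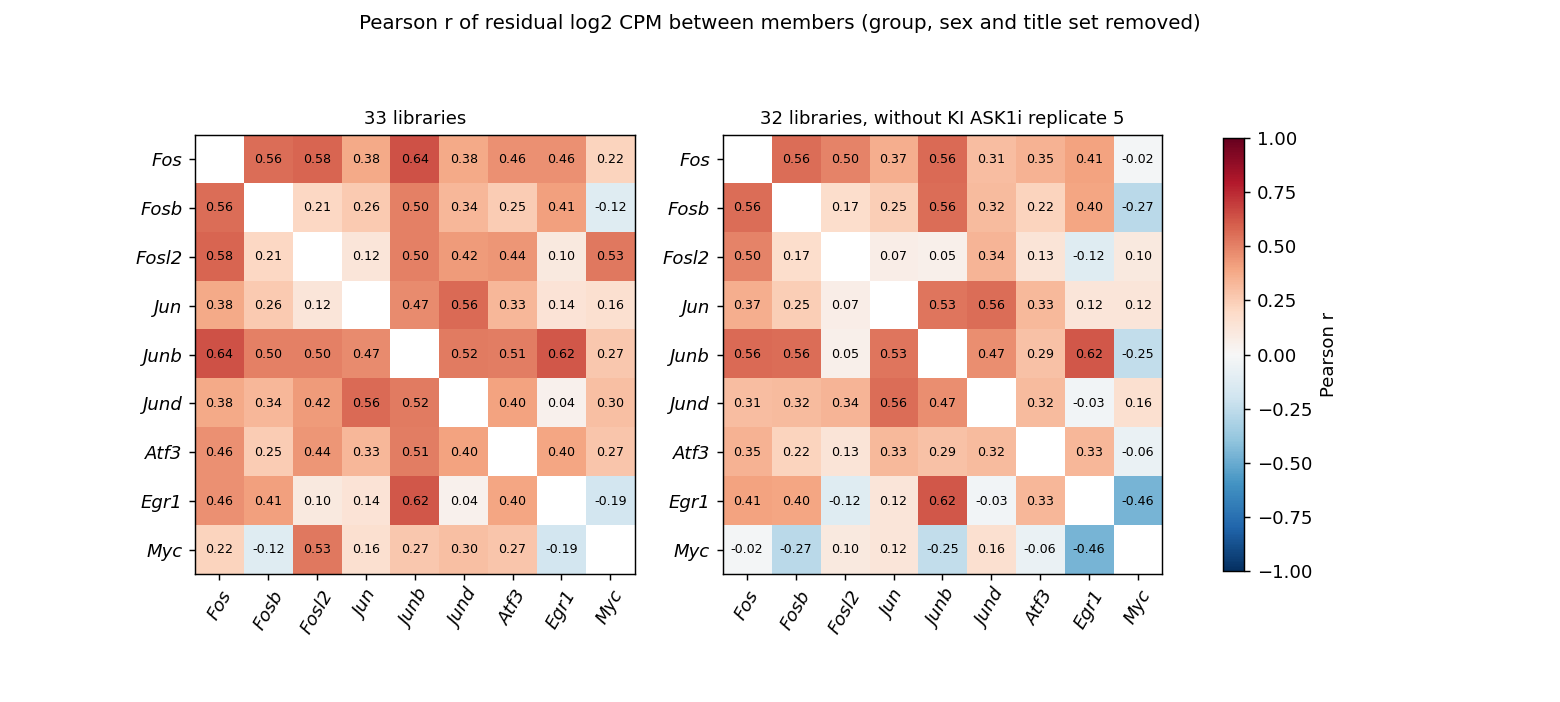
Pearson r between the 9 tested genes over residual log2 CPM, with all 33 libraries on the left and without the library labelled KI ASK1i replicate 5 on the right. Color runs from -1 (blue) to 1 (red). Fos with Junb reached 0.64 on the left and 0.56 on the right, and Fosl2 with Myc 0.53 and 0.10.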

How the data were processed

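Polyadenylated RNA of fresh frozen mouse liver was sequenced from TruSeq Stranded mRNA libraries, per the labels' protocols. The submitters' processing notes name RSEM 1.2.14, STAR 2.4, CASAVA 1.8.2 and the build mm10. Neither settings nor a gene annotation is given in the sources used here. The authors deposited expected counts from RSEM, with 91.4% to 93.7% of values whole per library and no scaling by depth. RSEM shares out reads that map to several genes.

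Counts were rounded, scaled by TMM and fitted in edgeR 4.0.16 (R 4.3.3) with its quasi-likelihood test, over 33 libraries in 4 groups, with sex and title set (numbered or P) as covariates. Genes were filtered by filterByExpr. P-values are two-sided and Benjamini-Hochberg adjusted over 14934 genes, with a threshold of 0.05. DESeq2 1.42.0, limma 3.58.1 (voom), other size factors, no filter, other covariates, subsets and each library left out were alternatives. CPM used TMM library sizes. Correlations used log2 CPM with a prior count of 2. Figures were drawn with matplotlib 3.10.9.

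The genes and lists were chosen with earlier results of these data known. Named genes were the 10 members, up to 4 called genes of smallest p per list and comparison, and the most similar genes to each member. From these the text gives examples. Whether each library is its own mouse is not stated in the labels, so p-values rest on the spread between libraries, which may be technical. Over 128 pairs within groups the lowest chi-square per gene was 26.3, so no library repeated another of its group. Libraries of different groups were not compared in this way. Gene positions are those of the deposited table (mm10), from 1. The test was checked on simulated counts. Fits that left out the library labelled KI ASK1i replicate 5 together with another change were added after the data had been seen, and the half-site TGACG after the promoters had been seen.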

Additional observations from a re-analysis of the deposited data

Results flagged for a closer look

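A library was singled out where its gap to the next value was large for the range of its group, by Dixon's test. Chance flags about 1 in 20 groups. Of 40 groups of values (10 genes in 4 groups of libraries) 8 were singled out. Egr1 gave 3 of them: 57.5 CPM in WT control replicate 2P (next highest 30.3), 58.7 CPM in WT ASK1i replicate 7 (next 21.0) and 177 CPM in KI ASK1i replicate 1 (next 54.4). Fosl2 was 32.2 CPM in KI control replicate 1, and the other 4 libraries of that group lay between 22.8 and 23.9. Myc was 4.60 CPM in the library labelled KI ASK1i replicate 5, whose group otherwise began at 12.2. Fosl1 gave 3, all from few reads: 0.0640 CPM in WT control replicate 7, 0.0687 CPM in WT ASK1i replicate 2 and 0.525 CPM in KI control replicate 1. KI control replicate 1 was the highest library of its group for Fos, Fosl1, Fosl2, Junb, Jund, Atf3 and Egr1.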

How the results depend on the processing

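For the 9 genes, direction and side of the threshold were kept in 423 combinations of comparison and alternative, while 11 calls were lost, 7 were gained and 25 uncalled values turned sign. With 1 library left out the counts were 1430, 18, 17 and 20. The number of genes higher in KI on control chow was 5, with a range of 4 to 6 when 1 library was left out, and 3 with the L code. On the ASK1i diet it was 7, with a range of 6 to 8, and 5 with the L code, where 4160 of 14934 genes were called higher. For both diet comparisons and the interaction it was 0 in every fit run.

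Calls lost were those of Junb (control chow, L code), Jun (ASK1i diet, L code, with or without replicate 5) and Fosb. Fosb lost its call on control chow with the L code, the replicate block (adjusted p = 0.1009) and male mice alone. On the ASK1i diet it did so with no filter (0.05559), the L code (0.2521), the block (0.1587), numbered titles alone (0.063) and the L code without replicate 5 (0.2108), with a range of 0.009395 to 0.08746 when 1 library was left out. Calls gained were those of Fos on control chow with other size factors (0.04968), DESeq2 (0.04179) and limma-voom (log2 1.84, adjusted p = 0.003545), and without WT control 3, 5 or 1P, WT ASK1i 3 or 6, KI control 4 or KI ASK1i 3 or 5 (0.01423 to 0.2665 over all libraries left out). Jund passed on the ASK1i diet with other size factors (0.04667), DESeq2 (0.03884), the L code without replicate 5 (0.03642) and in 9 of 33 fits with 1 library left out, and Jun passed on control chow with the block (0.04036). The cause was not tested.

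Log2 values that turned sign, none of them called, were as follows. Egr1 on control chow was -1.39 with the L code, -0.10 with the replicate block and -0.78 in males, and on the ASK1i diet -0.0458 with the L code. For the diet in WT, Atf3 was 0.066 with the L code and 0.18 in L6 libraries, Egr1 was 0.17 with limma-voom, 0.15 with group alone, 0.37 in numbered titles and 0.42 in L6 libraries, and Myc was -0.21 in numbered titles and -0.0812 in L6 libraries. For the diet in KI, males gave 0.0366 for Fos, 0.0429 for Jun and 0.0131 for Myc, limma-voom gave -0.0172 for Junb, and numbered titles gave -0.0339 for Jund and, without replicate 5, 0.0503 for Jun. Myc was 0.14 with the L code and 0.11 without replicate 5 as well. For the interaction, Fos was -0.0698 with the L code and -0.23 without replicate 5 as well, males gave 0.82 for Fosb and 0.21 for Atf3, and limma-voom gave -0.13 for Egr1. With 1 library left out the ranges that crossed 0 were -0.88 to 0.55 for Egr1 on control chow, -0.0731 to 1.13 for Egr1 on the ASK1i diet, -0.28 to 0.0058 for Atf3 and -0.37 to 0.37 for Egr1 (diet in WT), -0.0076 to 0.28 for Junb, -0.35 to 1.44 for Egr1 and -0.26 to 0.0373 for Myc (diet in KI), and -0.64 to 0.15 for Fosb and -0.41 to 1.53 for Egr1 (interaction).

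Replicate numbers showed no clear pairing of libraries, and pairing was not tested. Over 37 pairs with the same number in different groups the median correlation of deviations was 0.022, against -0.0057 over 363 pairs with other numbers. Those above 0.1 were 14 of the 37 and 70 of the 363. Of 30 libraries, 4 correlated best with their own number. With a replicate block the number of genes higher in KI was 5 on control chow, and 6 with the inhibitor. Depth limits Fosl1 and Fosb most.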

Other observations

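Sex carried no difference that passed for these genes. Between male and female libraries 0 of 9 were called by edgeR, against 1.49% of all genes, and 1 of 9 had an unadjusted p under 0.05. That gene was Egr1, higher in males by 1.203 on the log2 scale (SE 0.48, adjusted p = 0.2376). In the L6 code, with 4 libraries each of WT control and WT ASK1i, 2 of 10 genes (Fosb and Egr1) had a higher mean with the inhibitor. The WT control libraries there were mostly female and the WT ASK1i libraries mostly male, so diet and sex cannot be told apart in these means. Atf3 and Myc were nearly level (log2 ratios of -0.0025 and -0.0019). The share over all genes was not computed, so this count has no background.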
